A study of Sus scrofa with 40 samples.

Results

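A pair of cuts of the Chalu black pig were compared by RNA sequencing of whole muscle: the trapezius (TM), a muscle of the neck and shoulder, and the longissimus dorsi (LDM), the muscle of the loin. The comparison took the 10 libraries labelled TM and the 10 labelled LDM, 20 of the 40 libraries of the series, and every gene of the count table. The other 20 libraries, from the hamstring (HM) and the belly (PB), entered the fit so that all cuts shared 1 estimate of the spread. PB1 is PB by its title while its tissue label names the longissimus. Without it no named gene changed its call between TM and LDM. All 4 cuts came from untreated male pigs of 1 sire that were raised together, fasted before slaughter and sampled on the left side of the carcass soon after death, with the fascia removed, and the labels give no age. Of 21280 genes in the table, 11713 had enough reads to be tested. The labels do not say which libraries came from the same pig, so the p-values measure the spread between these libraries.

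Skeletal muscle is a mixture of slow fibres, which contract for long periods on the oxidation of fat and glucose, and fast fibres, many of which work in short bursts on glycogen broken down to lactate. Slow and fast fibres build the contractile apparatus from different members of the same protein families, so that paired isoforms of myosin, troponin and the calcium pump report the fibre makeup of a sample. In pigs the loin is known as a pale, largely fast muscle and the muscles of the neck and shoulder as redder ones.

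Reads counted to genes ranged from 13994947 to 17735722 per library in TM and from 14153884 to 17441798 in LDM, so the depth was alike in both cuts, and values are given as CPM, the counts per 1000000 reads counted in the library. By its correlation with the cut means over all genes tested, each of the 10 LDM libraries lay nearest the other LDM libraries, as against 7 of 10 TM libraries. Of the others, TM3 lay nearest HM, TM6 nearest PB and TM7 nearest LDM, and results are also given without TM3 and TM7, or without all 3, where that changes them. The fit without all 3 was added after seeing the data. Skeletal muscle was present in all 20 libraries by its own transcripts: ACTA1, the actin of the skeletal muscle thin filament, ran from 41342 to 59460 CPM in LDM (median 53936) and from 41041 to 96776 CPM in TM (median 84254). Models that also cover other reference genes may hold reads of these, which concerns S100A1, GPI, PYGM, PC, CPT1B, PLIN5, GPAM, ACACA, NDUFA1, CHCHD10, SLC6A8, PRDX5, CAPN1, DEPTOR and HOXA5 besides the fibre genes named below. Bulk libraries cannot tell fewer cells of a kind from less RNA per cell. Among the genes named below, those that changed did so in the same direction, with an adjusted p under 0.05 and with a log2 change within 1.5 times of the value given, under every alternative run unless another result is stated.

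In all, 2898 of the 11713 genes tested differed between the cuts at an adjusted p under 0.05 (24.7% of the genes tested), of which 1325 were higher in TM (11.3%) and 1573 lower (13.4%). Of these, 442 genes were higher by 2-fold or more (3.77%) and 278 lower by 2-fold or more (2.37%). With upper-quartile scaling in place of TMM, the split over all passing genes was 1611 higher and 1219 lower. The median log2 change of TM over LDM over all genes tested was 0.04. The counts of list members below are to be read beside the shares of 24.7%, 11.3% and 13.4%. A list near or below them is no result about its members. Among the lists below 24.7% were the costamere, oxygen and iron, muscle stem cells and growth, the clock, heat shock and mitochondrial upkeep. So were complex I, the collagens, the immediate early genes and the adipocyte, mural, fibroblast, Schwann, myeloid and lymphoid markers. Complete separation was far rarer than a passed test. All 10 TM libraries lay above all 10 LDM libraries for 104 genes (0.888% of the genes tested) and below them for 13 genes (0.111%). A further 160 genes lay above and 94 genes below all of LDM in every TM library but TM7. Of the 1573 genes that fell, TM7 was the highest TM library in 1195 (76.0%), and of the 1325 that rose it was the lowest in 426 (32.2%). No other TM library was nearest LDM in more than 202 of the genes that rose or 92 of those that fell.

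The contractile apparatus of TM was shifted towards slow isoforms. Of 13 slow-fibre genes tested, 12 rose in TM and 1 fell, with a median log2 change of 1.94, and of 14 fast-fibre genes none rose and 13 fell, with a median of -1.30. Without TM3 and TM7 the counts were the same. In the lists of this comparison that had no member passing in a direction, the number of members past an unadjusted p under 0.05 in that direction was 0, apart from 1 lipid synthesis gene lower, 2 genes of the neuromuscular junction lower and 1 costamere gene higher, and in none of these lists and directions did DESeq2 or limma-voom call more than 1 gene. MYH7, the slow myosin heavy chain, ran from 4277 to 14273 CPM in LDM (median 8807) and from 5692 to 71318 CPM in TM (median 36627). Of the TM libraries, 9 exceeded every LDM library, and the log2 change was 1.93 ± 0.32 (SE, adjusted p = 5.13e-05). MYL2, the slow regulatory light chain, ran from 762 to 1815 CPM in LDM (median 1372) and from 1356 to 15646 CPM in TM (median 5048), with a log2 change of 2.32 ± 0.31 (SE, adjusted p = 4.45e-06). 9 of 10 TM libraries lay above LDM, and TM7, at 1356 CPM, lay within its range. TPM3, the slow tropomyosin, had a median of 1059.9 CPM in LDM, with libraries from 641 to 1391, and of 3852 CPM in TM, with libraries from 916 to 6496. Its log2 change was 1.82 ± 0.26 (SE, adjusted p = 9.63e-06), with 9 TM libraries above the highest LDM library and TM7, at 916 CPM, apart from the rest. MYH7B, a slow-type myosin gene related to MYH7, ran from 25.4 to 82.2 CPM in LDM (median 43.7) and from 68.8 to 501 CPM in TM (median 211), a log2 change of 2.09 ± 0.31 (SE, adjusted p = 1.65e-05). Its ranges overlapped in 1 library, 9 of 10 TM libraries exceeding all of LDM.

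Among the fast-fibre genes, ACTN3, the alpha-actinin of the fast Z-disc, had the lowest log2 change of those named. It ran from 8615 to 14591 CPM in LDM (median 10084) and from 709 to 7993 CPM in TM (median 2929), and the log2 change was -1.97 ± 0.34 (SE, adjusted p = 8.88e-05). All 10 TM libraries lay below the lowest LDM library, TM7 included. MYBPC2, the fast myosin-binding protein C, ran from 8730.3 to 12614 CPM in LDM (median 10479.7) and from 1548 to 8757 CPM in TM (median 3887), with a log2 change of -1.60 ± 0.25 (SE, adjusted p = 2.12e-05). TPM1, the fast-fibre alpha-tropomyosin, had a median of 12040.2 CPM in LDM, with libraries from 7661 to 15248, and of 3509 CPM in TM, with libraries from 1446 to 9625. Its log2 change was -1.72 ± 0.26 (SE, adjusted p = 1.31e-05), and 9 of 10 TM libraries lay below the LDM range. TNNI2, the inhibitory troponin of fast fibres, had medians of 5839 CPM in LDM and 2240.2 CPM in TM, with a log2 change of -1.32 ± 0.23 (SE, adjusted p = 8.69e-05). MYH4, MYH1 and MYH2, which encode fast myosin heavy chains, share a single gene model in these files (chromosome 12), so their sum is all that was measured. That sum ran from 23962 to 45032 CPM in LDM (median 29540.2) and from 6689 to 29949 CPM in TM (median 17229), and it fell by less than ACTN3 did, with a log2 change of -0.99 ± 0.23 (SE, adjusted p = 0.00179). The types of fast fibre could not be separated for that reason. A slow-list gene went against the list's name: SLN, sarcolipin, a small inhibitor of the calcium pump of the sarcoplasmic reticulum, ran from 1649 to 2652 CPM in LDM (median 2315) and from 349 to 2380.3 CPM in TM (median 915), a log2 change of -1.31 ± 0.23 (SE, adjusted p = 7.55e-05).

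The shift was followed library by library as the slow isoform's percentage of the slow plus fast FPKM, the authors' count scaled by gene length and library total, in 9 pairs. These shares have no test. Gene models of unequal quality set the level of each share, so that levels are comparable between libraries and not between pairs. The slow myosin share was 22.1% ± 7.30 (SD, n = 10) in LDM, from 8.54% to 32%, and 62.9% ± 22.8 (SD, n = 10) in TM, from 15.7% to 89.1%. The lowest TM share belonged to TM7 and the next, 40.4%, to TM6, which was already above every LDM library. The MYH7 model also spans an unnamed protein-coding gene of the reference and overlaps CMTM5. The regulatory light chain gave 32.1% ± 8.64 in LDM and 77% ± 19.7 in TM for MYL2 over MYL2 plus MYLPF. The essential light chain, MYL3 over MYL3 plus MYL1, gave 11.1% ± 5.15 and 53% ± 22.7.

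The 3 troponin subunits moved with the myosins. TNNT1, the slow tropomyosin-binding subunit, made up 18.1% ± 6.08 of TNNT1 plus TNNT3 in LDM and 64.1% ± 22.3 in TM. TNNI1, the slow inhibitory subunit, made up 3.03% ± 1.17 and 25.3% ± 17.4 of TNNI1 plus TNNI2. TNNC1, the slow calcium-binding subunit, made up 10.0% ± 3.18 and 50.6% ± 21.4 of TNNC1 plus TNNC2. The models of TNNT3, MYL1 and MYLPF are long or cover neighbouring genes, which lowers or raises the share they enter. On the calcium side, ATP2A2, the pump of slow fibres, made up 4.49% ± 1.99 of both pumps in LDM and 37.6% ± 18.4 in TM, the other pump being ATP2A1 of fast fibres. CASQ2, the calcium-storing calsequestrin of slow fibres, was a small part of its pair in both cuts, 0.135% ± 0.116 and 1.32% ± 1.37, with CASQ1 as its partner. LDHB, the lactate dehydrogenase of oxidative tissue, made up 0.348% ± 0.146 of LDHB plus LDHA in LDM and 6.97% ± 6.74 in TM. As read counts, not per length, these were 0.109% and 2.40%. The LDHB model (chromosome 2:12988708-12990067) is as long as its span and so holds no intron. Its reads could be shared with a near-identical copy, and these percentages may not be the share of the LDHB gene. Read counts also moved the TM shares of MYL3 (26.4%), TNNI1 (51.2%) and CASQ2 (3.19%).

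**Figure D1:**
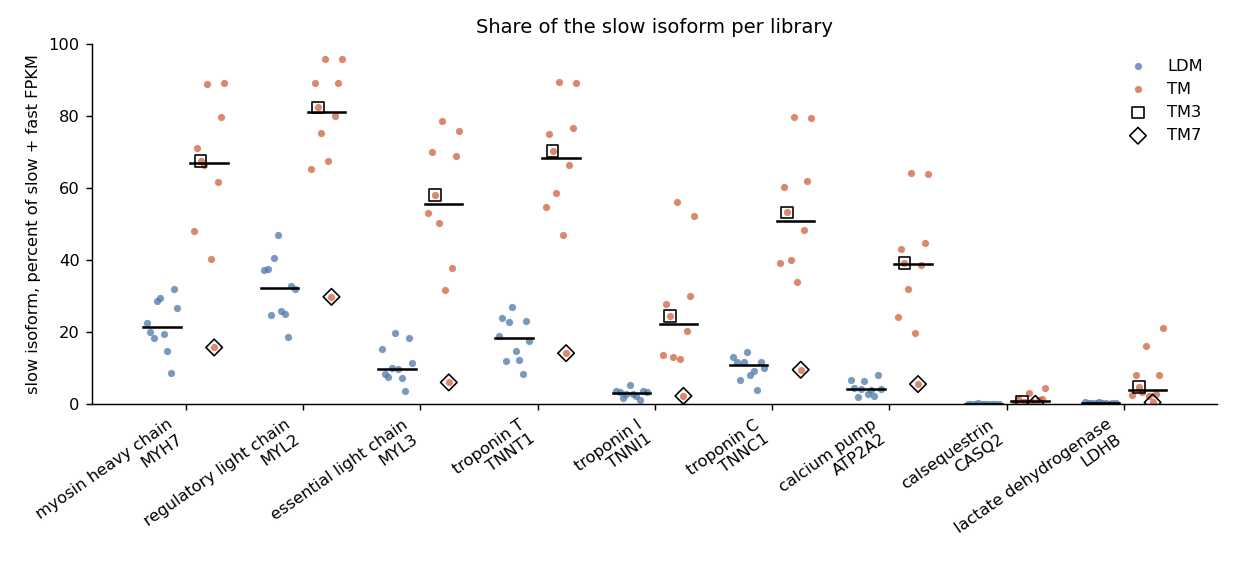
Slow isoform as a percentage of the slow plus fast FPKM (vertical axis) in each LDM and TM library for 9 isoform pairs, named by the pair and its slow gene, with bars at the medians and TM3 and TM7 outlined. TM7 is the lowest TM library in all 9 pairs, and the other 9 TM libraries lie above every LDM library in all pairs but calsequestrin, where 8 do.

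The order of the TM libraries was alike from pair to pair. TM7 was the lowest in 9 of 9 pairs, TM6 the next in 7 and TM1 in 2, while TM5 was the highest in 6 and TM10 in 3. The spread within TM was wide: ATP2A2 made up 5.57% of both pumps in TM7 and 64.1% in the highest TM library, as against 1.95% to 8.06% in LDM. These pairs share their libraries and are no separate evidence of that order. With TM3 and TM7 left out, the mean slow myosin share in TM was 68.2% ± 17.8 (SD, n = 8).

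Regulators of fibre type moved in both directions, 7 of 40 tested rising and 9 falling. Nuclear receptors that drive oxidative metabolism were among those that rose. ESRRA, an estrogen-related receptor active on mitochondrial genes, ran from 5.02 to 13.5 CPM in LDM (median 8.62) and from 9.65 to 41.2 CPM in TM (median 28.9), with a log2 change of 1.52 ± 0.26 (SE, adjusted p = 6.12e-05). 7 of 10 TM libraries exceeded the highest LDM library. Its relatives ESRRG and ESRRB had log2 changes of 2.32 ± 0.51 (SE, adjusted p = 0.00133) and 1.86 ± 0.31 (SE, adjusted p = 5.63e-05). PPARA, the fatty acid-sensing receptor of fat oxidation, had a median of 40.4 CPM in LDM, with libraries from 25.9 to 73.1, and of 98.5 CPM in TM, with libraries from 60.8 to 297. The log2 change was 1.61 ± 0.32 (SE, adjusted p = 0.000455), with 7 TM libraries above all of LDM. PPARGC1A, the coactivator these receptors work with, did not pass: it ran from 10.7 to 231 CPM in LDM (median 91.9) and from 30.9 to 754 CPM in TM (median 83.8), and the log2 change was 0.68 ± 0.65 (SE, adjusted p = 0.474). Its ranges overlapped, and its TM median lay below its LDM median. Those that fell included CAMK2A, a calcium-dependent kinase, at -0.82 ± 0.15 (SE, adjusted p = 8.95e-05), and MEF2A, a muscle transcription factor, at -0.92 ± 0.20 (SE, adjusted p = 0.000805). MAF, a transcription factor of fast fibres, ran from 65.5 to 233 CPM in LDM (median 127) and from 20.7 to 114 CPM in TM (median 42.7), with a log2 change of -1.45 ± 0.29 (SE, adjusted p = 0.000325). EYA4, a transcriptional coactivator whose family acts in fast fibres, had medians of 183 CPM in LDM and 85 CPM in TM, with a log2 change of -1.13 ± 0.28 (SE, adjusted p = 0.00333).

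The Z-disc and M-band are the plates that anchor thin and thick filaments. In the list of Z-disc, titin-associated and giant sarcomere proteins, 9 of 32 genes tested rose and 5 fell. MYBPC1, the slow myosin-binding protein C, had the smallest adjusted p of all named genes. It ran from 1347 to 2996 CPM in LDM (median 2279) and from 3899 to 9054 CPM in TM (median 7062), with all 10 TM libraries above all of LDM and a log2 change of 1.51 ± 0.16 (SE, adjusted p = 1.17e-07). MYOM3, an M-band protein, ran from 154 to 636 CPM in LDM (median 313) and from 225 to 1704 CPM in TM (median 1166), with a log2 change of 1.58 ± 0.35 (SE, adjusted p = 0.00115). FHL1, a LIM protein of the sarcomere, and PDLIM5, a scaffold of the Z-disc, rose by 1.16 ± 0.22 and 0.74 ± 0.15 on the log2 scale (SE, adjusted p = 0.000223 and 0.000309). TMOD4, which caps the thin filament, lay lower in all 10 TM libraries: it ran from 1680.0 to 2101 CPM in LDM (median 1784) and from 463 to 1632 CPM in TM (median 834), a log2 change of -1.26 ± 0.17 (SE, adjusted p = 3.10e-06). MYPN, PDLIM7 and OBSL1, other proteins of this list, had log2 changes of -1.10 ± 0.16, -1.12 ± 0.18 and -0.49 ± 0.15 (SE, adjusted p = 8.87e-06, 2.21e-05 and 0.0142).

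The machinery that couples the nerve impulse to calcium release fell more than it rose, with 9 of 28 genes lower and 1 higher. STAC3, an adaptor of the voltage-sensing calcium channel, ran from 627 to 973 CPM in LDM (median 808) and from 329 to 616 CPM in TM (median 414). No TM library reached the lowest LDM library, and the log2 change was -1.02 ± 0.13 (SE, adjusted p = 1.99e-06). CACNB1, the beta subunit of that channel, had medians of 394 CPM in LDM and 208 CPM in TM, with a log2 change of -1.16 ± 0.20 (SE, adjusted p = 5.21e-05). BIN1, which shapes the membrane tubules that carry the impulse inwards, had a log2 difference of -0.85 ± 0.13 (SE, adjusted p = 1.65e-05). The gene that rose was S100A1, a calcium-binding regulator of the release channel and of the pump, which ran from 5.89 to 33 CPM in LDM (median 18.6) and from 18.4 to 106 CPM in TM (median 49.2), a log2 change of 1.24 ± 0.31 (SE, adjusted p = 0.00301). Its model also covers CHTOP, so the reads may be of either gene. Channels and pumps of the fibre membrane were divided, 5 of 30 up and 5 down, or 9 up and 8 down with limma-voom. KCNMA1, a potassium channel opened by calcium, ran from 6.89 to 22.1 CPM in LDM (median 18.1) and from 23.4 to 66.2 CPM in TM (median 36.8). All 10 TM libraries lay above LDM, with a log2 change of 1.10 ± 0.24 (SE, adjusted p = 0.000892). KCNC4, another potassium channel, had a log2 difference of 1.55 ± 0.36 (SE, adjusted p = 0.00186), and KCNJ11, the pore of the ATP-gated potassium channel, one of -0.68 ± 0.14 (SE, adjusted p = 0.000431). Membrane anchoring genes of the dystrophin complex and costamere gave 0 higher and 4 lower of 26 tested, among them SNTB1, a syntrophin, at -2.16 ± 0.46 (SE, adjusted p = 0.000855), and DTNA, a dystrobrevin, at -0.38 ± 0.11 (SE, adjusted p = 0.0138). Without TM3 and TM7, 1 costamere gene rose and 4 fell. These counts are near or below the shares over all genes tested, 11.3% higher and 13.4% lower.

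Genes of energy metabolism divided by fuel, with most of those tested for glycolysis and glycogen lower in TM and most of those for fat oxidation higher. Of 16 glycolytic genes tested, 12 fell and 1 rose, with a median log2 change of -1.53. GPI, the enzyme of the step after glucose phosphorylation, ran from 1172 to 1830.1 CPM in LDM (median 1549) and from 283 to 1188 CPM in TM (median 524), a log2 change of -1.68 ± 0.22 (SE, adjusted p = 3.93e-06). 9 of 10 TM libraries lay below every LDM library. PFKM, the muscle phosphofructokinase and a control point of the pathway, ran from 2733 to 5754 CPM in LDM (median 4163) and from 651 to 3496 CPM in TM (median 1344), a log2 change of -1.69 ± 0.26 (SE, adjusted p = 1.74e-05). PGK1 and TPI1, enzymes further along it, had log2 changes of -1.75 ± 0.25 and -1.42 ± 0.22 (SE, adjusted p = 9.26e-06 and 2.07e-05). HK2, the muscle hexokinase that traps glucose in the cell, went the other way: it ran from 8.83 to 89.4 CPM in LDM (median 24.9) and from 22.3 to 992 CPM in TM (median 103), a log2 change of 2.78 ± 0.67 (SE, adjusted p = 0.00400). 5 TM libraries lay above LDM, and TM7 had 29.5 CPM. BPGM, which makes the haemoglobin ligand 2,3-bisphosphoglycerate, ran from 129 to 206 CPM in LDM (median 170.4) and from 7.05 to 117 CPM in TM (median 15.2). Its log2 change of -2.72 ± 0.44 (SE, adjusted p = 6.30e-05) was the lowest of the glycolysis list, and all 10 TM libraries lay below LDM. 

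Glycogen enzymes gave 13 lower and 1 higher of 20 tested, with a median of -0.68. PYGM, the muscle glycogen phosphorylase, ran from 12866 to 22073 CPM in LDM (median 15714) and from 3189.8 to 11619 CPM in TM (median 7282), with all TM libraries below LDM and a log2 change of -1.47 ± 0.22 (SE, adjusted p = 1.27e-05). PHKA1 and PHKB, subunits of the kinase that switches the phosphorylase on, had log2 changes of -1.67 ± 0.26 (SE, adjusted p = 2.67e-05) and -1.46 ± 0.24 (SE, adjusted p = 4.93e-05). PGM1, which links glycogen to glycolysis, had medians of 363 CPM in LDM and 95.8 CPM in TM, with a log2 change of -1.83 ± 0.30 (SE, adjusted p = 5.13e-05). The gene that rose was GBE1, the glycogen branching enzyme, at 0.76 ± 0.22 (SE, adjusted p = 0.0102). In the phosphagen and purine nucleotide list 6 of 15 fell and 2 rose. SLC6A8, the creatine transporter, ran from 629 to 1230.4 CPM in LDM (median 778) and from 325 to 624 CPM in TM (median 417), every TM library lying below every LDM library, with a log2 change of -1.11 ± 0.14 (SE, adjusted p = 1.99e-06). AMPD1, the muscle AMP deaminase, ran from 491 to 1891 CPM in LDM (median 683) and from 45.3 to 696 CPM in TM (median 228), a log2 change of -1.95 ± 0.40 (SE, adjusted p = 0.000569). AK1, the cytosolic adenylate kinase of muscle, and ADSS1, an enzyme of the same purine cycle, had log2 changes of -1.70 ± 0.30 (SE, adjusted p = 8.89e-05) and -0.85 ± 0.18 (SE, adjusted p = 0.000530).

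**Figure D2:**
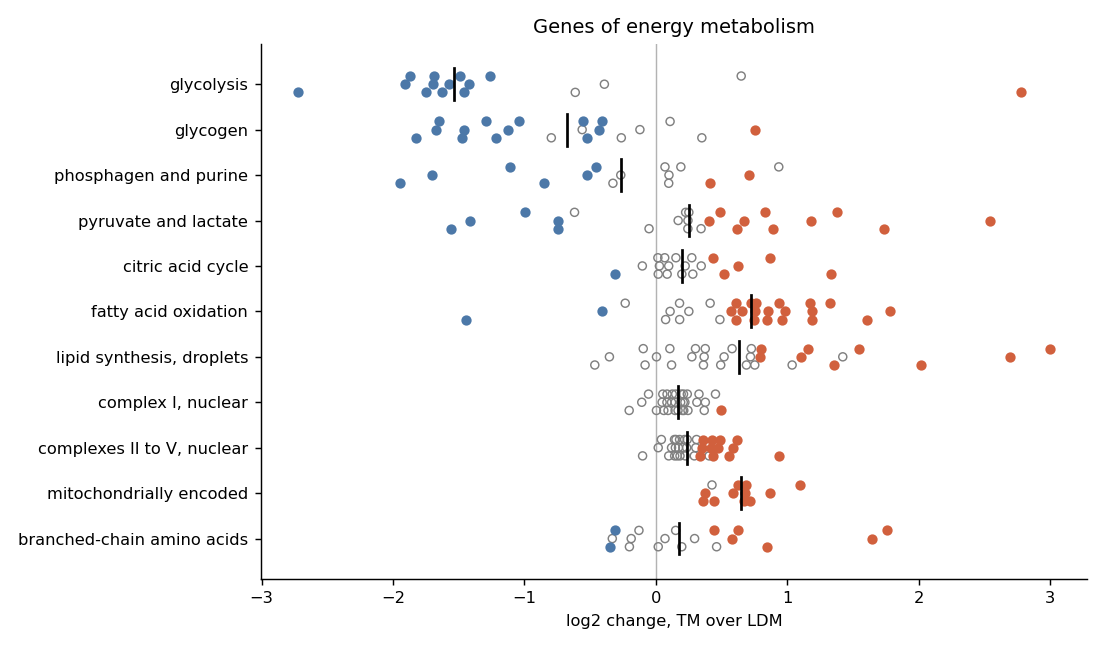
Log2 change of TM over LDM (horizontal axis) for each gene tested in 11 lists of energy metabolism. Filled points passed an adjusted p under 0.05, red where higher in TM and blue where lower, open points did not, and black bars mark each list's median: -1.53 for glycolysis, -0.68 for glycogen and 0.72 for fatty acid oxidation.

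Pyruvate and lactate handling exchanged members. Of 23 genes tested 10 rose and 5 fell. LDHB ran from 1.55 to 8.55 CPM in LDM (median 5.09) and from 7.94 to 32.5 CPM in TM (median 17.2), a log2 change of 1.73 ± 0.26 (SE, adjusted p = 1.13e-05), with 9 TM libraries above all of LDM. These values are those of the model without introns described above, so they may not be the level of the LDHB gene. The lactate carriers split: SLC16A7, a high-affinity monocarboxylate carrier, ran from 0 to 0.946 CPM in LDM (median 0.304) and from 0.135 to 6.0 CPM in TM (median 1.94), a log2 difference of 2.54 ± 0.52 (SE, adjusted p = 0.000318), and SLC16A3, the carrier of glycolytic fibres, ran from 33.7 to 113 CPM in LDM (median 63.1) and from 9.97 to 77.9 CPM in TM (median 26.1), a log2 change of -1.56 ± 0.39 (SE, adjusted p = 0.00343). The kinases that shut off pyruvate entry into mitochondria also split, PDK1 rising by 0.83 ± 0.17 (SE, adjusted p = 0.000463) with all 10 TM libraries above LDM, and PDK3 changing by -1.42 ± 0.26 (SE, adjusted p = 0.000181). Malic enzymes followed the same division, with ME2, the mitochondrial form, at 1.38 ± 0.19 (SE, adjusted p = 3.93e-06) and ME1, the cytosolic form, at -0.75 ± 0.18 (SE, adjusted p = 0.00275). PC, pyruvate carboxylase, had medians of 97.1 CPM in LDM and 50.7 CPM in TM, with a log2 change of -0.995 ± 0.20 (SE, adjusted p = 0.000290). In the citric acid cycle list 5 of 19 genes rose and 1 fell, and without TM3 and TM7 7 rose and none fell. The list also holds cytosolic forms, IDH1 and MDH1 among those that rose, so these are not counts of cycle enzymes alone. IDH1 and IDH2, the isocitrate dehydrogenases that make NADPH, had log2 changes of 1.33 ± 0.27 (SE, adjusted p = 0.000339) and 0.62 ± 0.16 (SE, adjusted p = 0.00453), and the malate dehydrogenases MDH1 and MDH2 had 0.87 ± 0.17 (SE, adjusted p = 0.000318) and 0.44 ± 0.13 (SE, adjusted p = 0.0111).

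Fatty acid uptake and beta-oxidation gave 19 higher and 2 lower of 29 tested, with a median log2 change of 0.72. CPT1B, the muscle carnitine palmitoyltransferase that admits long-chain fatty acids to the mitochondrion, ran from 56.6 to 174 CPM in LDM (median 110.3) and from 177 to 412 CPM in TM (median 256), a log2 change of 1.19 ± 0.19 (SE, adjusted p = 2.64e-05). Its inner-membrane partner CPT2 ran from 11.2 to 41 CPM in LDM (median 26.6) and from 41.1 to 133 CPM in TM (median 75.8), a log2 change of 1.60 ± 0.24 (SE, adjusted p = 1.27e-05). All 10 TM libraries exceeded all 10 LDM libraries for both steps of that shuttle. ACADVL, which opens the oxidation spiral for long chains, and ACAA2, a mitochondrial thiolase of beta-oxidation, also separated completely, with log2 changes of 1.17 ± 0.20 (SE, adjusted p = 6.59e-05) and 1.19 ± 0.19 (SE, adjusted p = 2.33e-05). Against the list's direction stood UCP3, a mitochondrial carrier of muscle, which ran from 461 to 911 CPM in LDM (median 777) and from 139 to 697 CPM in TM (median 279), a log2 change of -1.44 ± 0.39 (SE, adjusted p = 0.00660). Lipid synthesis and droplet genes gave 9 higher and none lower of 30 tested, and 13 higher without TM3 and TM7. PLIN5, the droplet coat protein of oxidative tissue, ran from 4.73 to 15.2 CPM in LDM (median 9.05) and from 11.3 to 114 CPM in TM (median 61.6), with 9 TM libraries above LDM and TM7 at 11.3 CPM. Its log2 change was 2.69 ± 0.30 (SE, adjusted p = 7.55e-07). MLXIPL, the glucose-sensing factor of fat synthesis, had medians of 2.97 CPM in LDM and 20.6 CPM in TM, a log2 change of 2.998 ± 0.45 (SE, adjusted p = 2.00e-05). GPAM, the first enzyme of triglyceride synthesis, and ACACA, acetyl-CoA carboxylase, had log2 changes of 2.02 ± 0.31 (SE, adjusted p = 2.56e-05) and 1.16 ± 0.19 (SE, adjusted p = 3.90e-05). Adipocyte markers found in no other list summed to values from 62.6 to 161 CPM in LDM (median 132) and from 161 to 356 CPM in TM (median 184), with 8 TM libraries above all of LDM. The highest was TM6. Their part in the lipid results was not tested. ADIPOQ, the adipocyte hormone, ran from 3.41 to 35.3 CPM in LDM (median 19.3) and from 8.85 to 122 CPM in TM (median 25.7), and its log2 change of 0.64 ± 0.57 (SE, adjusted p = 0.434) did not pass.

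Subunits of the respiratory chain that passed were all higher in TM, in shares that differed between the lists. Of the nuclear subunits of complexes II to V, 12 of 34 rose and none fell, with a median log2 change of 0.24, and in complex I 1 of 31 rose, or 5 without TM3 and TM7. NDUFA4, a subunit of cytochrome c oxidase despite its name, ran from 92.1 to 175 CPM in LDM (median 134) and from 165 to 259 CPM in TM (median 207), a log2 change of 0.59 ± 0.11 (SE, adjusted p = 0.000163). ATP5ME and ATP5MC3, subunits of the ATP synthase, and UQCRC2, a core protein of complex III, had log2 changes of 0.62 ± 0.15, 0.56 ± 0.15 and 0.48 ± 0.13 (SE, adjusted p = 0.00218, 0.00501 and 0.00532). The complex I gene was NDUFA1, at 0.49 ± 0.16 (SE, adjusted p = 0.0192), with an adjusted p of 0.0560 when TM9 was left out. Of the 12 proteins encoded by mitochondrial DNA that were tested, 11 rose, with a median of 0.65, or 6 without TM3, TM6 and TM7. Their reads made up 4.97% ± 0.827 of an LDM library and 7.53% ± 1.80 of a TM library (SD, n = 10). ND2, a subunit of complex I, ran from 391 to 1096 CPM in LDM (median 847) and from 867 to 2814 CPM in TM (median 1494), a log2 difference of 0.86 ± 0.18 (SE, adjusted p = 0.000654), and ATP6, of the ATP synthase, had medians of 2521 CPM in LDM and 3874 CPM in TM, a log2 change of 0.68 ± 0.16 (SE, adjusted p = 0.00141). ND3, of complex I, and COX2, of cytochrome c oxidase, had log2 changes of 0.69 ± 0.16 (SE, adjusted p = 0.00144) and 0.59 ± 0.16 (SE, adjusted p = 0.00711), but COX2 had 0.33 and an adjusted p of 0.119 without TM3, TM6 and TM7. Upkeep of mitochondria gave 3 higher and 2 lower of 33, or 4 lower with limma-voom. CHCHD10, a protein of the inner membrane's contact sites, ran from 59.3 to 294 CPM in LDM (median 123) and from 108 to 436 CPM in TM (median 317), a log2 difference of 1.02 ± 0.32 (SE, adjusted p = 0.0192) that did not pass without LDM3 and LDM4 (adjusted p = 0.0578), and LONP1, a matrix protease, had one of -0.37 ± 0.10 (SE, adjusted p = 0.00680).

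Breakdown of branched-chain amino acids gave 6 higher and 2 lower of 18, or 0 lower with upper-quartile scaling. DBT, the core of the branched-chain ketoacid dehydrogenase, ran from 3.12 to 11.9 CPM in LDM (median 5.92) and from 10.9 to 38.8 CPM in TM (median 18.6), a log2 change of 1.76 ± 0.26 (SE, adjusted p = 9.26e-06). MCCC2, a subunit of the leucine pathway's carboxylase, ran from 9.23 to 26.9 CPM in LDM (median 14.2) and from 27.9 to 83.7 CPM in TM (median 44.8), with all 10 TM libraries above LDM and a log2 change of 1.64 ± 0.24 (SE, adjusted p = 9.26e-06). PCCA, a subunit of propionyl-CoA carboxylase, and ECHDC1, an enzyme that removes faulty carboxylase products, had log2 changes of 0.84 ± 0.18 (SE, adjusted p = 0.000615) and 0.63 ± 0.15 (SE, adjusted p = 0.00208). The 21 genes of defence against reactive oxygen were divided, 2 higher and 5 lower, or 3 lower with upper-quartile scaling. TXNRD2 and PRDX2, of the thioredoxin system, rose by 0.69 ± 0.15 and 0.49 ± 0.11 on the log2 scale (SE, adjusted p = 0.000686 and 0.00165). NQO1, a quinone reductase, SOD1, the copper-zinc superoxide dismutase, and PRDX5, a peroxiredoxin, had log2 changes of -0.65 ± 0.16, -0.43 ± 0.12 and -0.46 ± 0.13 (SE, adjusted p = 0.00297, 0.00726 and 0.00761). Among 22 genes of oxygen and iron, 3 rose and 2 fell, and up to 6 rose in other fits (upper-quartile scaling, limma-voom). FTH1, the ferritin heavy chain, ran from 489 to 674 CPM in LDM (median 602) and from 600.1 to 1474 CPM in TM (median 955), a log2 change of 0.62 ± 0.16 (SE, adjusted p = 0.00457). EPAS1, a hypoxia-inducible factor, had a log2 difference of 0.77 ± 0.15 (SE, adjusted p = 0.000247), and NCOA4, which delivers ferritin for breakdown, one of -0.32 ± 0.09 (SE, adjusted p = 0.00715). Myoglobin, the oxygen store of red muscle, was not analysed here.

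The steepest rises were in genes of low to moderate level. SBK2, a kinase gene (chromosome 6:59672295-59677670), ran from 0.201 to 0.573 CPM in LDM (median 0.349) and from 0.127 to 103 CPM in TM (median 19.3), the highest log2 change of the genes the rule named at 6.23 ± 0.91 (SE, adjusted p = 9.63e-06). 9 TM libraries lay above all of LDM, and TM7, at 0.127 CPM, lay below all of LDM. RFLNA, a gene of the refilin family, which acts on filamin (chromosome 14:28823569-28841235), ran from 0.295 to 2.64 CPM in LDM (median 1.47) and from 0.762 to 227 CPM in TM (median 43.3), a log2 change of 5.82 ± 0.62 (SE, adjusted p = 1.85e-06). It too was 9 of 10, with TM7 at 0.762 CPM inside the LDM range. RSPO3, a secreted enhancer of WNT signalling, and ASIC1, an acid-sensing sodium channel, separated the cuts without exception. RSPO3 ran from 0.565 to 2.35 CPM in LDM (median 1.21) and from 2.35 to 43.3 CPM in TM (median 16.1), a log2 difference of 3.71 ± 0.53 (SE, adjusted p = 1.20e-05), and ASIC1 ran from 0.172 to 1.81 CPM in LDM (median 0.471) and from 2.22 to 19.1 CPM in TM (median 6.95), a log2 change of 3.76 ± 0.51 (SE, adjusted p = 4.45e-06). CEACAM1, a cell adhesion molecule, ran from 0 to 1.48 CPM in LDM (median 0.681) and from 1.33 to 16.8 CPM in TM (median 7.47), a log2 difference of 3.32 ± 0.56 (SE, adjusted p = 6.65e-05), and KRT80, a keratin, ran from 0.777 to 6.30 CPM in LDM (median 2.92) and from 4.76 to 107 CPM in TM (median 22.3), one of 3.21 ± 0.55 (SE, adjusted p = 0.000127). Of the 12 highest, the rule also named NRSN1 (4.45 ± 0.76), RAB30, a small GTPase of the Golgi (3.76 ± 0.53), PADI2, a peptidylarginine deiminase (3.62 ± 0.82), and PCARE (3.57 ± 0.69), with log2 changes ± SE in parentheses and adjusted p-values of 9.91e-05, 1.03e-05, 0.00200 and 0.000206. IRX3 was among the 12 and is described with the positional genes.

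The 12 lowest log2 changes included those of USH1C, KY and the carriers SLC7A8 and SLC16A5, beside HOX genes and SIM1. USH1C, a scaffold protein known from hair cells, ran from 2.28 to 5.44 CPM in LDM (median 3.41) and from 0 to 3.17 CPM in TM (median 0.121), a log2 difference of -3.21 ± 0.62 (SE, adjusted p = 0.000269) and of -5.40 without TM3, TM6 and TM7, and 9 TM libraries lay below LDM. TM7 was the exception at 3.17 CPM. SLC7A8, a carrier of neutral amino acids, ran from 135 to 499 CPM in LDM (median 290.2) and from 4.62 to 181 CPM in TM (median 34.5), a log2 change of -2.995 ± 0.62 (SE, adjusted p = 0.00108). SLC16A5, of the monocarboxylate carrier family, ran from 36.7 to 129.5 CPM in LDM (median 59.4) and from 4.53 to 49.6 CPM in TM (median 8.75), a log2 change of -2.44 ± 0.49 (SE, adjusted p = 0.000587). KY, a protein of the Z-disc and muscle upkeep, ran from 24.8 to 155 CPM in LDM (median 64.8) and from 0.886 to 51 CPM in TM (median 7.15), a log2 change of -2.69 ± 0.55 (SE, adjusted p = 0.000774). In all 4, TM7 lay far above the TM median. VAV3, a guanine nucleotide exchange factor, GTSE1, a protein of dividing cells, RASGEF1A, an exchange factor of the RAS family, and GRAMD2A had log2 changes of -2.56 ± 0.44, -2.29 ± 0.51, -2.75 ± 0.43 and -2.42 ± 0.44 (SE, adjusted p = 8.35e-05, 0.00120, 2.67e-05 and 0.000163).

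**Figure D3:**
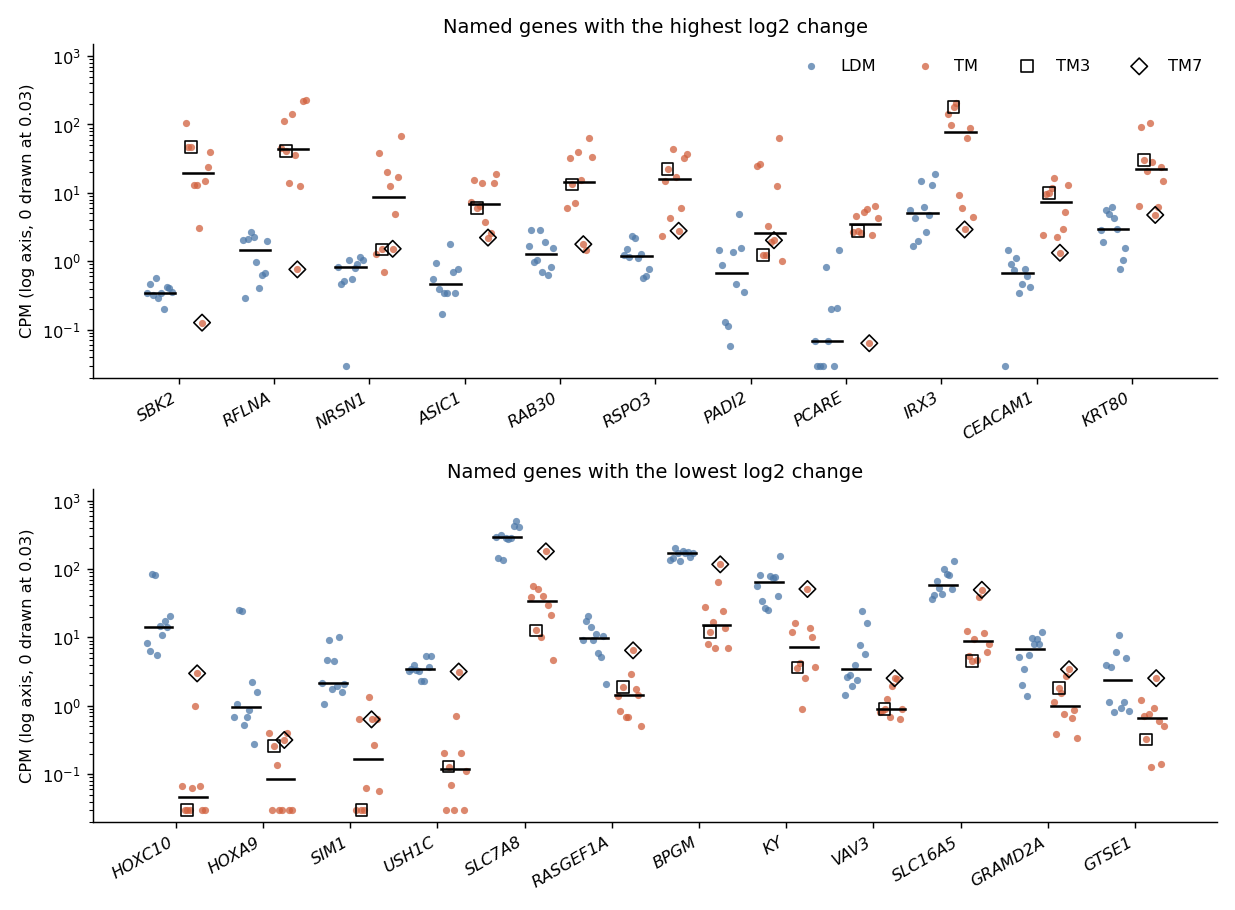
CPM on a log axis in each LDM and TM library for the named genes with the highest and the lowest log2 changes, with bars at the medians, TM3 and TM7 outlined and values of 0 drawn at 0.03. TM7 (diamond) lies in or under the LDM range for SBK2, RFLNA, PCARE, IRX3, CEACAM1, KRT80, RAB30 and PADI2. It lies near the LDM medians for USH1C and KY, while HOXC10 is below the LDM range in all 10 TM libraries.

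The HOX genes record where along the body a tissue formed: the genes of each cluster lie in order, low-numbered genes being used towards the head and high-numbered ones towards the tail. Of 25 HOX genes tested, 5 rose in TM, with numbers from 2 to 4, and 8 fell, with numbers from 8 to 11 but for HOXD1. The filter for testing took in all 4 cuts. HOXA10, HOXA11, HOXA13 and HOXC11 were tested through their reads in HM (2877, 1075, 2310 and 1206). HOXA10 and HOXC11 are among the 8 that fell. Without LDM3 and LDM4, 4 rose and 4 fell. Among the low numbers, HOXB2 ran from 1.04 to 2.19 CPM in LDM (median 1.23) and from 1.78 to 6.27 CPM in TM (median 3.27), a log2 difference of 1.14 ± 0.24 (SE, adjusted p = 0.000541), and HOXB3 had medians of 1.0 CPM in LDM and 1.92 CPM in TM, a log2 change of 1.20 ± 0.32 (SE, adjusted p = 0.00559). HOXC4, the first gene of its cluster, ran from 0.115 to 1.38 CPM in LDM (median 0.596) and from 0.286 to 4.85 CPM in TM (median 2.46), a log2 change of 1.79 ± 0.42 (SE, adjusted p = 0.00189). HOXA3 and HOXB4 also passed, at 1.29 ± 0.40 (SE, adjusted p = 0.0157) and 1.23 ± 0.46 (SE, adjusted p = 0.0423), but HOXA3 had an adjusted p of 0.0841 without TM2, and HOXB4 did not pass in 10 of 20 fits that left out 1 library. HOXB5 was too low to be tested, with 232 reads in TM and 10 in LDM.

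Among the high numbers, HOXC10 (chromosome 5:19197807-19202970) ran from 5.60 to 83.8 CPM in LDM (median 14.2) and from 0 to 2.98 CPM in TM (median 0.0316). All 10 TM libraries lay below all 10 LDM libraries, and the log2 change was -6.27 ± 0.74 (SE, adjusted p = 1.34e-06). Without TM3, TM6 and TM7 it was -9.69, but TM7 held 47 of the 64 TM reads, so few were left in that fit. LDM3 and LDM4 held 1288 and 1406 of the 4135 LDM reads of HOXC10. The ratio of LDM over TM reads was 64.1, or 28.4 without both. HOXA9 (chromosome 18:45408377-45411510) ran from 0.274 to 25 CPM in LDM (median 0.966) and from 0 to 0.405 CPM in TM (median 0.0692), a log2 change of -5.47 ± 1.59 (SE, adjusted p = 0.00282). LDM itself was uneven there, LDM3 and LDM4 holding 384 and 431 of its 934 LDM reads. Without both, a fit added after seeing the data, the change was -2.74 with an adjusted p of 0.142. HOXA10, next to HOXA9, had 291 reads over the 10 LDM libraries and 1 over the 10 TM libraries. That is a ratio of 289, with a counting interval from 51.4 to 11438, which covers counting error only. Again LDM3 and LDM4 held nearly all, 127 and 156 reads: the ratio was 181 without LDM3, 151 without LDM4 and 10.1 without both. Its fitted change passed with edgeR (adjusted p = 0.00700) and not with limma-voom (adjusted p = 0.151), nor without LDM3 and LDM4 (adjusted p = 0.571). HOXD11 had 41 reads in LDM, all in LDM3 and LDM4, and 0 in TM, at least 13.6-fold higher in LDM against a floor of 3 reads over the cut, or 9.18-fold without LDM3 and 5.97-fold without LDM4. HOXC9 and HOXC8 fell too, with log2 changes of -2.22 ± 0.49 and -1.91 ± 0.50 (SE, adjusted p = 0.00131 and 0.00544), and of -3.34 and -3.25 with limma-voom. HOXC11 had 27 reads in LDM and 3 in TM, a ratio of 8.93 with a counting interval from 2.75 to 46, and its adjusted p of 0.0213 reached 0.161 without LDM4. LDM3 and LDM4 held 8 and 16 of these reads, and the ratio was 1.26 without both. HOXC10, HOXC9 and HOXC8 passed without LDM3 and LDM4.

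HOXD1, the lowest number of its cluster, fell against that order: it ran from 6.99 to 19.2 CPM in LDM (median 14) and from 0 to 11.9 CPM in TM (median 0.476), a log2 change of -2.999 ± 0.69 (SE, adjusted p = 0.00227), -4.86 without TM3, TM6 and TM7, or -4.71 with limma-voom. HOXD9 passed at -1.54 ± 0.55 (SE, adjusted p = 0.0375), but not in 11 of 20 fits that left out 1 library, the highest adjusted p being 0.0669 without TM3. Of the HOX genes with reads that were tested, HOXA4, HOXA5, HOXA7, HOXB6, HOXB7, HOXC5, HOXC6, HOXD3, HOXD4 and HOXD8 did not pass, with log2 changes from -1.50 ± 0.57 for HOXD8 to 1.24 ± 0.49 for HOXB6 and adjusted p-values from 0.0541 to 0.948. HOXD8 had -2.29 with an adjusted p of 0.0065 without TM3, TM6 and TM7. Of those too low to be tested, HOXD10 had 108 reads in LDM and 10 in TM, a ratio of 10.7 with a counting interval from 5.61 to 23, or 0.883 without LDM3 and LDM4, and HOXA2 had 27 and 71. HOXB8 had 17 and 15 reads, HOXB9 57 and 54, and HOXD13 3 and 0. HOXA13, HOXB1, HOXB13, HOXC12, HOXC13 and HOXD12 had 0 reads in both cuts, which allows up to 3 reads over the 10 libraries of a cut. Of these, only HOXA13 was tested, through its reads in HM. HOXA11 had 7 reads in LDM and 2 in TM and did not pass (adjusted p = 0.290). In TM7, HOXC8 stood at 43 CPM and HOXD8 at 69.3 CPM, above their LDM means of 29.8 and 67 CPM. HOXC10 stood at 2.98 CPM in TM7, the highest of the TM libraries yet under the lowest LDM library.

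**Figure D4:**
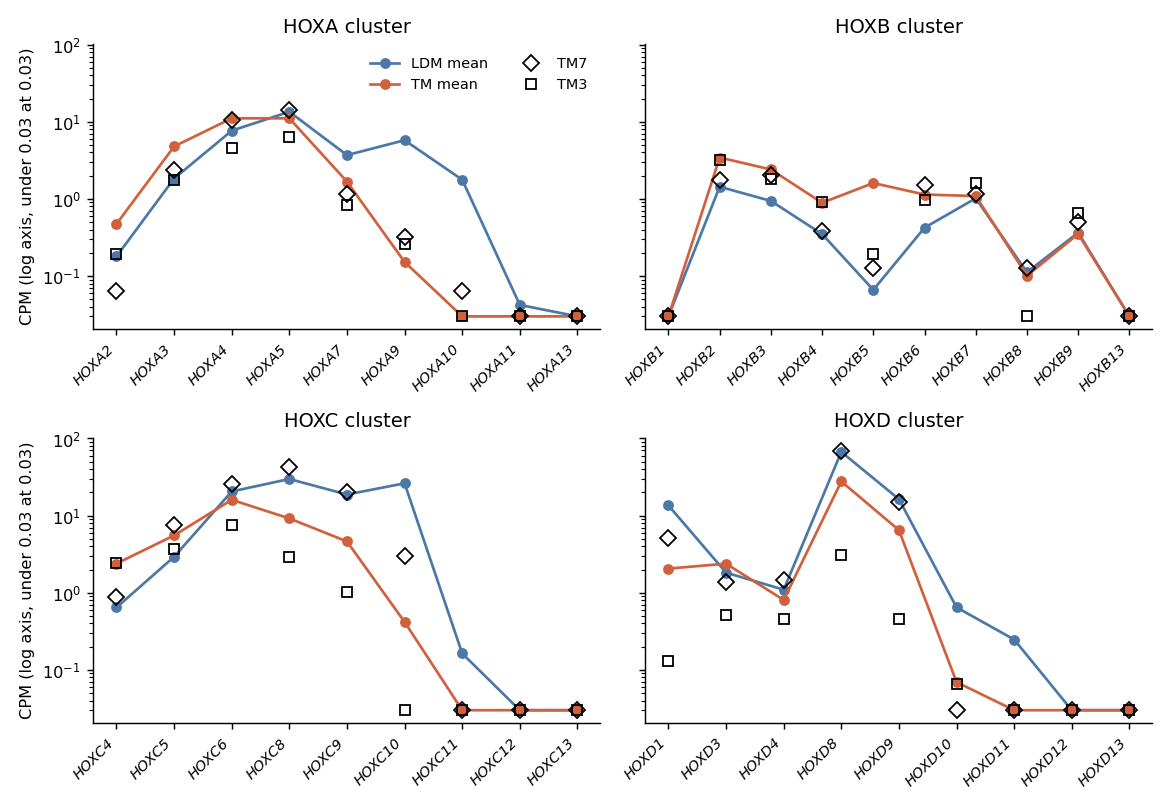
Mean CPM on a log axis (values under 0.03 at 0.03) of each named HOX gene in LDM and TM, in the order of the 4 clusters, with TM3 and TM7 as open marks. In the HOXA and HOXC clusters the TM mean is above the LDM mean at HOXA3, HOXA4, HOXC4 and HOXC5. It is below the LDM mean at HOXA5, HOXA7, HOXA9, HOXC6, HOXC8, HOXC9 and HOXC10. In the HOXD cluster the TM mean is below at HOXD1, above at HOXD3 and below again at HOXD4. Of these genes, HOXA4, HOXA5, HOXA7, HOXC5, HOXC6, HOXD3 and HOXD4 did not pass.

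Other transcription factors of body position were also uneven. Of 25 trunk and limb factors tested, 9 rose and 3 fell. IRX3, an Iroquois factor (chromosome 6:31046098-31048822), ran from 1.65 to 18.8 CPM in LDM (median 5.16) and from 2.92 to 206 CPM in TM (median 76.7), a log2 change of 3.36 ± 0.54 (SE, adjusted p = 7.27e-05). 6 of 10 TM libraries exceeded the highest LDM library, and TM7, at 2.92 CPM, was the lowest. MEOX1, a somite factor, ran from 3.51 to 8.62 CPM in LDM (median 5.29) and from 8.07 to 91.8 CPM in TM (median 19), a log2 change of 2.07 ± 0.34 (SE, adjusted p = 4.76e-05). TBX3 and PRRX1, factors of limb mesenchyme, had log2 changes of 1.03 ± 0.20 (SE, adjusted p = 0.000296) and 1.45 ± 0.30 (SE, adjusted p = 0.000500). On the other side, SIM1, a factor known from somites and limb muscle precursors, ran from 1.06 to 10.2 CPM in LDM (median 2.13) and from 0 to 1.36 CPM in TM (median 0.167), a log2 change of -3.60 ± 0.71 (SE, adjusted p = 0.000234). EN2, an engrailed factor, and PBX3, a partner of HOX proteins, had log2 changes of -2.01 ± 0.58 (SE, adjusted p = 0.00845) and -1.63 ± 0.33 (SE, adjusted p = 0.000431). Of 6 factors of head and neck mesoderm tested, 2 rose, 1 of which held in every planned fit and is not named here. EBF2 passed at 0.59 ± 0.19 (SE, adjusted p = 0.0184), but with an adjusted p of 0.0611 without TM6. TBX1, needed for branchial muscle, ran from 8.51 to 19.6 CPM in LDM (median 14.4) and from 9.0 to 125 CPM in TM (median 17.2). Its log2 change of 1.31 ± 0.51 (SE, adjusted p = 0.0576) did not pass with all TM libraries, and without TM3 and TM7 it was 1.57 with an adjusted p of 0.0247.

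Among 23 genes of muscle stem cells and growth, 2 rose and 3 fell, and with limma-voom 5 rose. MSTN, myostatin, the secreted brake on muscle growth, ran from 0.423 to 7.09 CPM in LDM (median 1.23) and from 0.190 to 0.857 CPM in TM (median 0.603), a log2 change of -2.12 ± 0.42 (SE, adjusted p = 0.000286). It was a low-level transcript in both cuts, with overlapping ranges. MYH8, the perinatal myosin heavy chain, ran from 16.7 to 45.6 CPM in LDM (median 33.2) and from 3.29 to 16 CPM in TM (median 7.30), all TM libraries below LDM, with a log2 change of -2.18 ± 0.35 (SE, adjusted p = 4.23e-05). MYH3, the embryonic one, had medians of 53.4 CPM in LDM and 14.9 CPM in TM, with a log2 change of -1.77 ± 0.42 (SE, adjusted p = 0.00225). HEYL, a Notch target, ran from 8.57 to 13.8 CPM in LDM (median 10.9) and from 14.8 to 29.7 CPM in TM (median 20.7), all TM libraries above LDM, with a log2 change of 0.90 ± 0.18 (SE, adjusted p = 0.000431). PAX7, the satellite cell factor, ran from 2.27 to 10.9 CPM in LDM (median 5.67) and from 4.49 to 9.72 CPM in TM (median 5.12), and its log2 change of 0.11 ± 0.22 (SE, adjusted p = 0.758) did not pass. In the IGF, insulin and mTOR list, 9 of 24 rose and 5 fell, or 3 fell with upper-quartile scaling and in the 20 libraries alone. INSR, the insulin receptor, ran from 14 to 37.9 CPM in LDM (median 26.9) and from 31 to 112 CPM in TM (median 44.8), a log2 change of 1.05 ± 0.26 (SE, adjusted p = 0.00293). The docking proteins behind it went apart, IRS2 at 0.96 ± 0.29 (SE, adjusted p = 0.0137) and IRS1 at -1.17 ± 0.34 (SE, adjusted p = 0.0102). IGF2, a growth factor, had a log2 difference of 0.61 ± 0.13 (SE, adjusted p = 0.000530), and IGFBP7, of the IGF-binding family, one of 0.86 ± 0.16 (SE, adjusted p = 0.000102). DEPTOR, a brake on mTOR, had medians of 104 CPM in LDM and 37 CPM in TM, with a log2 difference of -1.46 ± 0.32 (SE, adjusted p = 0.000954), and DDIT4, another, had one of -1.37 ± 0.33 (SE, adjusted p = 0.00253).

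Transcripts of protein turnover genes fell in part, with 9 of 29 genes lower and 1 higher. SQSTM1, the autophagy receptor p62, ran from 1079 to 2586 CPM in LDM (median 1742) and from 706 to 1643 CPM in TM (median 878), a log2 difference of -1.09 ± 0.14 (SE, adjusted p = 2.05e-06), and TM7 alone, at 1643 CPM, stood among the LDM values. MAP1LC3A, an autophagosome protein, CAPN1 and CAPN3, calpain proteases, had log2 changes of -0.65 ± 0.14, -0.54 ± 0.14 and -0.60 ± 0.16 (SE, adjusted p = 0.00107, 0.00391 and 0.00483). In the heat shock list 1 of 20 rose and 2 fell, or 5 in the fit of the 20 libraries alone. HSPB6, a small heat shock protein of muscle, ran from 586 to 1222 CPM in LDM (median 992) and from 1257 to 7799.9 CPM in TM (median 3353), with every TM library above LDM and a log2 change of 1.86 ± 0.30 (SE, adjusted p = 3.87e-05). HSPB8, a relative in chaperone-assisted autophagy, and UNC45B, the myosin chaperone, had log2 changes of -1.17 ± 0.29 (SE, adjusted p = 0.00269) and -0.69 ± 0.15 (SE, adjusted p = 0.00108). Circadian clock genes gave 1 higher and 3 lower of 19, and 1 higher and 5 lower without TM3 and TM7. HLF, a clock output factor, CRY2, a clock repressor, and NR1D2, a REV-ERB receptor, had log2 changes of -0.85 ± 0.21, -0.82 ± 0.21 and -0.64 ± 0.19 (SE, adjusted p = 0.00321, 0.00457 and 0.00973). Immediate early genes, which respond within minutes to stress and handling, gave 1 higher and 2 lower of 26, and 0 higher and 1 lower without TM3 and TM7. The 3 were KLF6, a zinc finger factor, at 1.35 ± 0.43 (SE, adjusted p = 0.0218), DUSP1, a phosphatase of MAP kinases, at -0.84 ± 0.29 (SE, adjusted p = 0.0306) and NFKBIA, the inhibitor of NF-kappa-B, at -0.62 ± 0.21 (SE, adjusted p = 0.0241). None of the 3 held under every alternative: without TM3 and TM7, KLF6 had an adjusted p of 0.0956 and DUSP1 one of 0.0572, and NFKBIA had 0.0608 without LDM3.

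Many vascular genes were higher in TM. Of 17 endothelial markers tested 12 rose and none fell, with a median log2 change of 0.60, and of 31 vascular growth factors and receptors 12 rose and 1 fell, with a median of 0.59. The 2 lists share members. FLT1, a VEGF receptor, ran from 44.3 to 73.8 CPM in LDM (median 49.6) and from 55.6 to 167 CPM in TM (median 104), a log2 change of 0.78 ± 0.17 (SE, adjusted p = 0.000954). NRP1, a coreceptor of VEGF, ran from 33.1 to 56.9 CPM in LDM (median 43.2) and from 57.1 to 155 CPM in TM (median 93.3), all TM libraries above LDM, with a log2 change of 1.004 ± 0.16 (SE, adjusted p = 1.88e-05). CDH5, the endothelial cadherin, ERG, an endothelial transcription factor, and EMCN, a sialomucin of vessels, had log2 changes of 0.62 ± 0.17, 0.81 ± 0.18 and 0.71 ± 0.16 (SE, adjusted p = 0.00660, 0.00107 and 0.00128). Of the growth factors, FGF1 ran from 3.63 to 16.5 CPM in LDM (median 6.70) and from 10.4 to 42.3 CPM in TM (median 16.3), a log2 difference of 1.31 ± 0.34 (SE, adjusted p = 0.00501), and FGF9 had medians of 1.01 CPM in LDM and 3.14 CPM in TM, a log2 change of 1.63 ± 0.30 (SE, adjusted p = 0.000151). The summed endothelial markers in no other list ran from 359.6 to 511 CPM in LDM (median 416) and from 417 to 967 CPM in TM (median 673), with 9 TM libraries above all of LDM. Fewer mural markers passed, 2 of 12, or 4 with limma-voom: RGS5, a pericyte marker, at 0.86 ± 0.19 (SE, adjusted p = 0.00107) with all TM libraries above LDM, and MCAM at 0.59 ± 0.22 (SE, adjusted p = 0.0442), which did not pass in 11 of 20 fits that left out 1 library, nor without TM3 and TM7 (adjusted p = 0.0670). Mural sums ran from 381 to 703 CPM in LDM (median 558) and from 479.8 to 1834 CPM in TM (median 843), 6 TM libraries lying above LDM. The part of vessel cells in the results for vascular genes was not tested.

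Matrix genes other than collagens gave 14 higher and none lower of 43, with a median of 0.57. SPARC, a collagen-binding protein, ran from 256 to 409.9 CPM in LDM (median 343) and from 452 to 704 CPM in TM (median 566), with every TM library above LDM and a log2 change of 0.65 ± 0.18 (SE, adjusted p = 0.00596). LOXL1 and LOXL2, enzymes that crosslink collagen and elastin, had log2 changes of 1.33 ± 0.29 (SE, adjusted p = 0.00101) and 1.01 ± 0.31 (SE, adjusted p = 0.0145). THBS4, a thrombospondin of tendon and muscle, ran from 22.7 to 131 CPM in LDM (median 66.4) and from 113 to 472 CPM in TM (median 162), a log2 change of 1.37 ± 0.38 (SE, adjusted p = 0.00864). Of 21 collagen chains 1 passed, COL8A1, at 1.64 ± 0.42 (SE, adjusted p = 0.00414). In the fit of the 20 libraries alone 13 collagen chains passed, all higher in TM, and with limma-voom 8 did. COL1A1, the main fibrillar collagen, ran from 106 to 289.5 CPM in LDM (median 182) and from 172 to 488 CPM in TM (median 281), and its log2 change of 0.60 ± 0.39 (SE, adjusted p = 0.271) did not pass. Fibroblast marker sums ran from 524 to 1103 CPM in LDM (median 790.2) and from 664 to 1425 CPM in TM (median 979), with 1 TM library above LDM. Of 11 fibroblast markers, DPP4 rose by 1.02 ± 0.29 (SE, adjusted p = 0.00830) and PI16 by 0.84 ± 0.28 (SE, adjusted p = 0.0281), the latter with an adjusted p of 0.0502 without LDM7, and 6 of 11 were higher in the 20 libraries alone.

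At the nerve contact, 4 of 16 genes of the neuromuscular junction rose and none fell, and in the 20 libraries alone 2 fell. CHRNA1, the alpha subunit of the acetylcholine receptor, ran from 1.17 to 7.98 CPM in LDM (median 3.55) and from 6.86 to 18.3 CPM in TM (median 10.7), a log2 change of 1.33 ± 0.35 (SE, adjusted p = 0.00517). CHRNE, the adult epsilon subunit, and COLQ, the collagen tail that anchors acetylcholinesterase, had log2 changes of 1.11 ± 0.34 (SE, adjusted p = 0.0147) and 1.34 ± 0.40 (SE, adjusted p = 0.0101). Schwann cell markers gave 1 higher and 1 lower of 9. MBP, a myelin protein, ran from 65.9 to 145 CPM in LDM (median 96) and from 15.1 to 105 CPM in TM (median 38.4), a log2 difference of -1.39 ± 0.30 (SE, adjusted p = 0.00105), and PMP2, another, passed at 1.70 ± 0.56 (SE, adjusted p = 0.0243), but had 0.61 with an adjusted p of 0.367 without TM6 and did not pass with DESeq2 (adjusted p = 0.381). Schwann sums ran from 103 to 264 CPM in LDM (median 188) and from 96.6 to 435 CPM in TM (median 134).

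Few markers of blood and skin cells passed. Myeloid sums ran from 37.9 to 192 CPM in LDM (median 106) and from 40.6 to 238 CPM in TM (median 134), and 1 of 12 markers passed, CSF1R at 0.87 ± 0.33 (SE, adjusted p = 0.0468), which did not pass in 13 of 20 fits that left out 1 library. None of 4 lymphoid markers passed (edgeR, adjusted p under 0.05), PTPRC, the pan-leukocyte marker, having a log2 change of 0.07 ± 0.45 (SE, adjusted p = 0.924). Of 4 keratinocyte markers 1 passed, TP63, at -1.22 ± 0.36 (SE, adjusted p = 0.0116). The keratins KRT5, KRT15, KRT1 and KRT77 were at 0 in all 20 libraries, as was the myeloid marker LYZ. Of 14 adipocyte markers, AQP7, a glycerol channel, rose by 2.30 ± 0.34 (SE, adjusted p = 1.27e-05) and GPD1 changed by -1.46 ± 0.24 (SE, adjusted p = 3.87e-05), the latter being also a muscle enzyme of the glycerol phosphate shuttle.

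**Figure D5:**
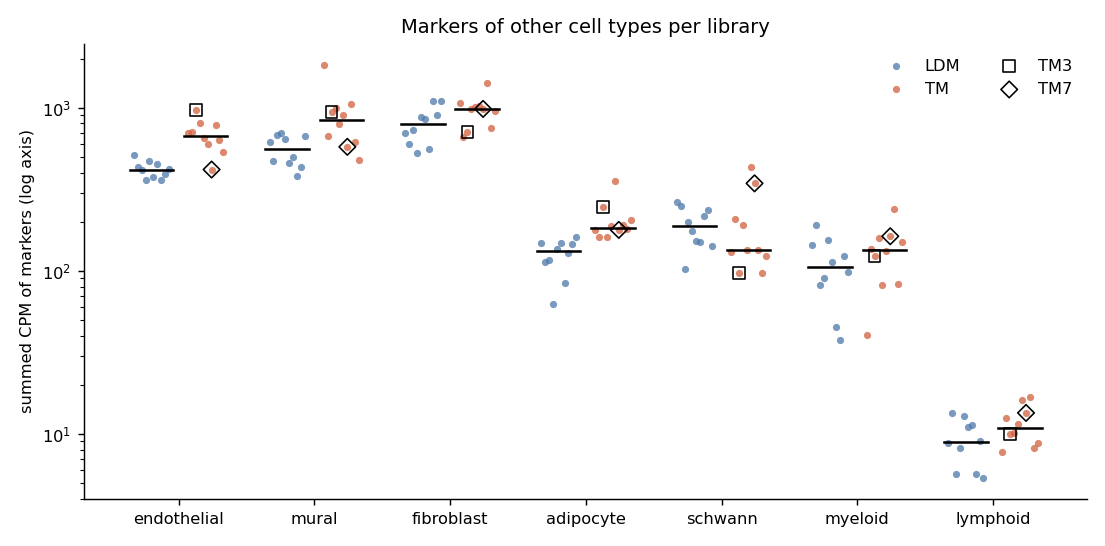
Summed CPM on a log axis of the markers of 7 other cell types (markers that are in no other list) in each LDM and TM library, with bars at the medians and TM3 and TM7 outlined. Endothelial sums lie above all of LDM in 9 TM libraries and adipocyte sums in 8, while fibroblast, Schwann, myeloid and lymphoid sums overlap.

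The level in TM was set against the other cuts by the same fit. TM and HM differed in 90 of 11713 genes (0.768%) and TM and PB in 2705 (23.1%), or 2476 without PB1. These comparisons share the TM libraries with the comparison above and are not independent of it. Between TM and HM the named genes that passed were mostly positional. The rule for named genes took in the HOX genes with reads, so this is no result about the 90 genes. IRX3 had medians of 0.840 CPM in HM and 47.1 CPM in PB beside 76.7 in TM, and TM exceeded HM by 6.52 ± 0.63 on the log2 scale (SE, adjusted p = 5.02e-08). HOXC10 was highest in HM, with a median of 61.5 CPM and 0.679 in PB, and TM differed from HM by -7.20 ± 0.74 (SE, adjusted p = 5.02e-08). HOXC8 went the other way, TM exceeding HM by 3.37 ± 0.58 (SE, adjusted p = 0.000721). CEACAM1 and KRT80 were higher in TM than in HM by 2.14 ± 0.52 and 2.23 ± 0.54 (SE, adjusted p = 0.0441 and 0.0446). SIM1 had medians of 0 CPM in HM and 9.56 CPM in PB, and TM was lower than PB by -5.15 ± 0.70 (SE, adjusted p = 1.72e-06).

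For the fibre genes TM was set against both cuts in the same way. The median of MYH7 was 26804 CPM in HM and 26947 in PB. The log2 differences of TM from HM, 0.50 ± 0.32 (SE, adjusted p = 0.541), and from PB, 0.37 ± 0.32 (SE, adjusted p = 0.419), did not pass. The fast myosin sum was lower in TM than in PB, by -0.92 ± 0.23 (SE, adjusted p = 0.00408). ESRRA and PPARA were higher in TM than in PB, by 1.37 ± 0.26 and 1.05 ± 0.32 (SE, adjusted p = 0.000194 and 0.0167). Mitochondrially encoded genes had their highest medians in PB: ND2 stood at 5209.9 CPM there and 2354 in HM, and TM was lower than PB by -2.06 ± 0.18 (SE, adjusted p = 3.54e-10). SLC16A7 was lower in TM than in PB too, with medians of 6.56 CPM in PB and 1.82 in HM and a difference from PB of -1.72 ± 0.43 (SE, adjusted p = 0.00381). MSTN was lower in TM than in PB by -2.52 ± 0.42 (SE, adjusted p = 3.14e-05), and its difference from HM, -1.47 ± 0.42, did not pass (adjusted p = 0.0888).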

How the data were processed

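RNA from the 40 libraries (10 each of LDM, HM, TM and PB) was sequenced from a stranded kit, per the labels' protocols. Tools listed in the submitters' processing notes are HTSeq 0.9.1, HISAT2 2.0.5 and cutadapt 1.15, with the build Sscrofa11.1 and no roles or settings. The sources used here do not state whether counting used strand, so overlapping and antisense genes are uncertain. The deposited table holds raw read counts per gene. It also holds FPKM, made by the authors from those counts and each gene's length. Every row names a gene.

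Genes carried 14883 symbols as deposited, and 1270 more were taken from the reference by gene ID or, where no ID matched, by a reciprocal overlap of at least 50% on the same build. Counts were fitted with edgeR 4.0.16 (R 4.3.3): TMM scaling, the filterByExpr filter by cut, and a robust quasi-likelihood test with cut as the only factor over all 40 libraries. P-values were adjusted by Benjamini-Hochberg over 11713 genes, with 0.05 as the threshold. Standard errors are those of the fitted log2 change. CPM are per total counts. Counting intervals of read ratios are exact 95% intervals and cover counting error only. The slow shares use the deposited FPKM. Alternatives used DESeq2 1.42.0, limma 3.58.1 (voom with quality weights), other scalings and filters, the replicate block, fewer libraries, and each of the 20 libraries left out.

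The 46 gene lists, the members and the rule for named genes were chosen with earlier results of these data known. A gene was stable if it passed with the same sign, and a log2 change within 1.5 times, in every planned fit that tested it (1964 genes). Named genes were the 12 highest and 12 lowest stable genes with a symbol and a mean CPM of 1 or more in 1 of the cuts, up to 4 stable members per list and direction by adjusted p, all passing members of lists with 3 or fewer, the isoform pairs, PPARGC1A, MSTN, ADIPOQ, COL1A1, PTPRC, TBX1 and PAX7, and HOX genes with reads. MB, also on that list, had no matched symbol, and a few other genes chosen by it are left unreported. Tested on simulated counts of 11605 genes, the fit recovered 20% of genes changed by 0.5 on the log2 scale, 75.5% by 1, 98% by 2 and 100% by 3. The simulation changed 49 or 50 genes of each size, far fewer than passed here, and had no library apart from its cut. These rates are therefore not the power of this comparison. No pair of libraries of a cut agreed within sampling noise.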

Additional observations from a re-analysis of the deposited data

Results flagged for a closer look

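In 211 genes and 2 cuts, the highest or lowest library of a cut was set against the other libraries of that cut by Dixon's test on log2(CPM + 0.5). The test marked a library in 30 of 422 groups, and chance marks about 1 in 20. TM7 was the library marked in 15 of the 30.

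In TM7 the following genes were far below the other 9 TM libraries. PCARE stood at 0.0635 CPM in TM7, the others lying from 2.43 to 6.50 CPM. ATP2A2 stood at 963 CPM in TM7, the others lying from 2361 to 6185 CPM. TPM3 stood at 916 CPM in TM7, the others lying from 2714 to 6496 CPM. MYBPC1 stood at 3899 CPM in TM7, the others lying from 6294 to 9054 CPM. MYOM3 stood at 225 CPM in TM7, the others lying from 592 to 1704 CPM. IDH2 stood at 354 CPM in TM7, the others lying from 523 to 817 CPM. PLIN5 stood at 11.3 CPM in TM7, the others lying from 38.9 to 114 CPM. EPAS1 stood at 161 CPM in TM7, the others lying from 236 to 341 CPM. MYL3 stood at 138 CPM in TM7, the others lying from 491 to 1553 CPM. TNNT1 stood at 1006 CPM in TM7, the others lying from 2876 to 9056 CPM. TNNI1 stood at 549.7 CPM in TM7, the others lying from 1683 to 4820.1 CPM. TNNC1 stood at 775 CPM in TM7, the others lying from 2168 to 5742 CPM.

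In TM7 these genes were far above the other 9 TM libraries. USH1C stood at 3.17 CPM in TM7, the others lying from 0 to 0.715 CPM. HOXA10 stood at 0.0635 CPM in TM7, the others lying at 0. SQSTM1 stood at 1643 CPM in TM7, the others lying from 706 to 1003 CPM. Elsewhere in TM, THBS4 stood at 472 CPM in TM9, the others lying from 113 to 204 CPM. HOXA11 stood at 0.143 CPM in TM6, the others lying at 0. HOXC11 stood at 0.143 CPM in TM6, the others lying from 0 to 0.0564 CPM. HOXA10, HOXA11 and HOXC11 rest there on 1 to 3 reads over the cut.

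Within LDM, NRSN1 stood at 0 CPM in LDM4, the others lying from 0.473 to 1.16 CPM. MEF2A stood at 78.4 CPM in LDM10, the others lying from 167 to 333 CPM. EYA4 stood at 41.2 CPM in LDM10, the others lying from 132 to 249.9 CPM. MYBPC1 stood at 1347 CPM in LDM3, the others lying from 2123 to 2996 CPM. LDHB stood at 1.55 CPM in LDM8, the others lying from 3.90 to 8.55 CPM. HOXD9 stood at 7.74 CPM in LDM2, the others lying from 14.7 to 20.1 CPM. PBX3 stood at 20.3 CPM in LDM2, the others lying from 3.73 to 8.34 CPM. DUSP1 stood at 119.9 CPM in LDM7, the others lying from 279 to 608 CPM. ERG stood at 6.27 CPM in LDM10, the others lying from 10.1 to 15.6 CPM. PI16 stood at 83.2 CPM in LDM8, the others lying from 24.4 to 46.4 CPM. CASQ2 stood at 31.5 CPM in LDM4, the others lying from 7.15 to 13.8 CPM. HOXA11 stood at 0.287 CPM in LDM4, the others lying from 0 to 0.0707 CPM.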

How the results depend on the processing

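Each count of passing genes between TM and LDM below stayed within 1.5 times of the value reported. By setting, the number of genes passing was 2904 with DESeq2's size factors, 2830 with upper-quartile scaling, 3162 with DESeq2, 3593 with limma-voom, 2729 with no filter, 2886 with at least 1 CPM in 10 libraries, 3060 in the 20 libraries alone, 2964 without TM3 and TM7 and 2855 with mitochondrial genes taken out. Chosen after seeing the data, leaving out TM3, TM6 and TM7 gave 2928 (892 by 2-fold or more), with 7 of 211 named genes losing the threshold (COX2, HOXB4, EBF2, KLF6, DUSP1, MCAM and PMP2) and HOXD8 gaining it (adjusted p = 0.0065 in edgeR's test), leaving out PB1 gave 2854, and leaving out LDM3 and LDM4 gave 2383 (699 by 2-fold or more), where 13 named genes lost the threshold: HOXA9, HOXA10, HOXB4, HOXC11, HOXD9, NDUFA1, CHCHD10, DUSP1, NFKBIA, MCAM, PI16, PMP2 and CSF1R. The number passing ran from 2550 (without TM5) to 3237 (without TM7) when 1 library was left out, and the number passing by 2-fold or more ran from 649 to 840. Of 6312 values of the 211 named genes under the other alternatives, none changed sign with a passed test, 76 values of 14 genes lost the threshold and 32 values of 5 genes gained it. Of 92 counts of list members by direction, 34 moved by over 1.5 times in some setting, 18 of them by 1 gene. With upper-quartile scaling 56.9% of passing genes were higher in TM, as against 45.7% with TMM. The comparisons of TM with HM and PB were refitted only without PB1.

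With the library number as a replicate block, 3584 genes passed, 742 of them by 2-fold or more, and 7 costamere genes fell in place of 4. The numbers are not stated to mark pigs: same-numbered TM and LDM libraries deviated together with a correlation over 0.1 in 8 of 10 pairs (median 0.191, lowest -0.102), and 6 of 10 TM libraries correlated best with their own number. The reported fit has no block.

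Depth limits low genes most: the shallowest LDM library has 0.0707 CPM per read.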
